A study of Mus musculus with 2 samples.

Results

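The genes described here are the Gata factors Gata2, Gata3, Gata4, Gata5 and Gata6 and the Fog cofactors Zfpm1 (Fog1) and Zfpm2 (Fog2). They were chosen by their symbols, with earlier results of these data known. In the list of Isl1 binding sites in mouse embryos, 35 of 48295 peaks (0.0725%) carried the name of 1 of these 7 genes, and 5 of the 7 genes had at least 1 peak. Isl1 is a LIM-homeodomain transcription factor of cardiac progenitors of the second heart field, and the study mapped its binding by ChIP-Seq, the sequencing of DNA precipitated with an antibody, to find genes it could control during heart formation. Chromatin of the cardiogenic mesoderm and heart region of pooled C57BL/6 embryos at E8.25-E9 was precipitated with a monoclonal antibody against Isl1 from the Developmental Studies Hybridoma Bank. The labels give no mutation and no treatment. Besides the Isl1 sample there was an input sample of the same strain and stage, made without antibody, which was not analysed here. There was thus 1 peak list and no second list to set beside it, so no test between samples was possible, and every value below describes this list. Each peak had a position on mm9, the name of the gene with the closest transcription start site (TSS) and the distance to that TSS, but no height, enrichment or p-value. The number of reads behind the peaks was unknown.

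Gata factors are zinc finger proteins that bind the sequence GATA, and Fog proteins are zinc finger cofactors that bind the amino-terminal zinc finger of Gata factors rather than DNA and recruit chromatin regulators. Gata4, Gata5 and Gata6 act in heart and endoderm, where Gata4 works with Zfpm2 in the forming heart, while Gata2 and Gata3 are best known from blood, ear, nervous system and trophoblast. Zfpm1 is the partner of Gata1 in red cell and megakaryocyte formation and is also active in the heart.

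Most of the 35 peaks lay over a long stretch of only purines (A and G) or only pyrimidines (C and T), and 2 peaks of Zfpm1 lay over sequence rich in CG instead. To show both kinds, sequence from the plus strand of mm9 is given for 4 sites, 5′ to 3′. In the first 2 sequences the capitals mark the longest such stretch, called a run below, and in the last 2 they mark CG dinucleotides. The first is the only Gata2 peak, 29.5 kb upstream of the TSS, and the second is the Gata3 peak in an intron of the gene, 18.0 kb downstream. The last 2 are the Zfpm1 peaks 51.7 kb upstream and 0.299 kb downstream of the TSS, the second of them shown only for the part of the peak beyond the exon.
Gata2, chr6:88119071-88119249: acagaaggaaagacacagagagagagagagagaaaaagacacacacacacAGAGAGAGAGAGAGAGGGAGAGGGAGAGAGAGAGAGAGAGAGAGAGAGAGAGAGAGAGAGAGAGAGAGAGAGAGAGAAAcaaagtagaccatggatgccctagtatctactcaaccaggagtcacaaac
Gata3, chr2:9782232-9782411: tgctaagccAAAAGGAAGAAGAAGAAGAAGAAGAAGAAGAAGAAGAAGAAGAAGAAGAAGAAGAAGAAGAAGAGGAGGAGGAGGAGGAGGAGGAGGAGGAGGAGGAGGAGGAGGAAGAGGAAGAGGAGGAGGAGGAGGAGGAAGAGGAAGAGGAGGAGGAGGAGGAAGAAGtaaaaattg
Zfpm1, chr8:124754223-124754372: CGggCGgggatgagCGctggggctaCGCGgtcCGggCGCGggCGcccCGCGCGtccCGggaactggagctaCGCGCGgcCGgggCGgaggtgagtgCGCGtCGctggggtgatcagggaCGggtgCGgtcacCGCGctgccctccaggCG
Zfpm1, chr8:124806423-124806567: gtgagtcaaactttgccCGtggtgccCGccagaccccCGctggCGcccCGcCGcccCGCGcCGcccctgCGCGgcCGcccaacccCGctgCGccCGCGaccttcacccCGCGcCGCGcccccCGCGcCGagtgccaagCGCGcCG
The marked run was 79 bp at Gata2 and 162 bp at Gata3. The Gata2 run was built of GA repeats and the Gata3 run of GAA followed by GGA repeats. The last 2 sequences held 26 CG dinucleotides each.

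The peaks were spread unevenly over the 7 genes. Gata3 had 12 peaks, Zfpm2 11, Gata6 8, Zfpm1 3 and Gata2 1, while Gata4 and Gata5 had none. Of all 22219 protein-coding genes of the annotation, 45.5% had at least 1 peak named for them and 4.96% had at least 8, a number reached by Gata3, Zfpm2 and Gata6. Names were matched by symbol, so a gene with another symbol in the annotation counted as having no peak. Shares and medians of named peaks over all genes can therefore be too low beside the 7 genes, which all matched. The 5 Gata genes together had 21 peaks and the 2 Fog genes 14. The heart-related group Gata4, Gata5 and Gata6 accounted for 8 peaks, all of Gata6, and the pair Gata2 and Gata3 for 13. Over the 7 genes the median was 3 peaks per gene, against 0 over all protein-coding genes. By the closest protein-coding TSS of GENCODE the median was 1 for both, and within 500 kb of the TSS it was 18 peaks of any name against 17.

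Few of these peaks were close to a promoter. The median distance to the TSS was 85.5 kb, ranging from 0.299 to 381.8 kb, against 58.8 kb over all peaks of the list. A named peak within 10 kb of the TSS was found at 2 of the 7 genes, Gata6 and Zfpm1, and at 22.6% of protein-coding genes. Within 100 kb it was found at 5 of the 7 and at 44.9% of protein-coding genes. Of the 35 peaks, 13 (37.1%) lay upstream of the TSS, against 47.5% of all peaks. By name, all 12 Gata3 peaks lay downstream, all 8 Gata6 peaks upstream, and Zfpm2 had 9 of 11 downstream. At Gata3 and Gata6 the side follows largely from the naming rule. The TSS of 1010001N08Rik, 57 bp from that of Gata6, took 6 peaks downstream of Gata6. The TSS of 9230102O04Rik, 10940 bp upstream of the listed Gata3 TSS, took 3 peaks upstream of Gata3. By the closest protein-coding TSS, 1 of these went to Gata3 and the others to Taf3. The upstream share of the 35 peaks is bound by the same rule. The peaks were 294 to 691 bp wide, counting both ends, with a median of 454 bp, close to the 467 bp of all peaks.

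**Figure D1:**
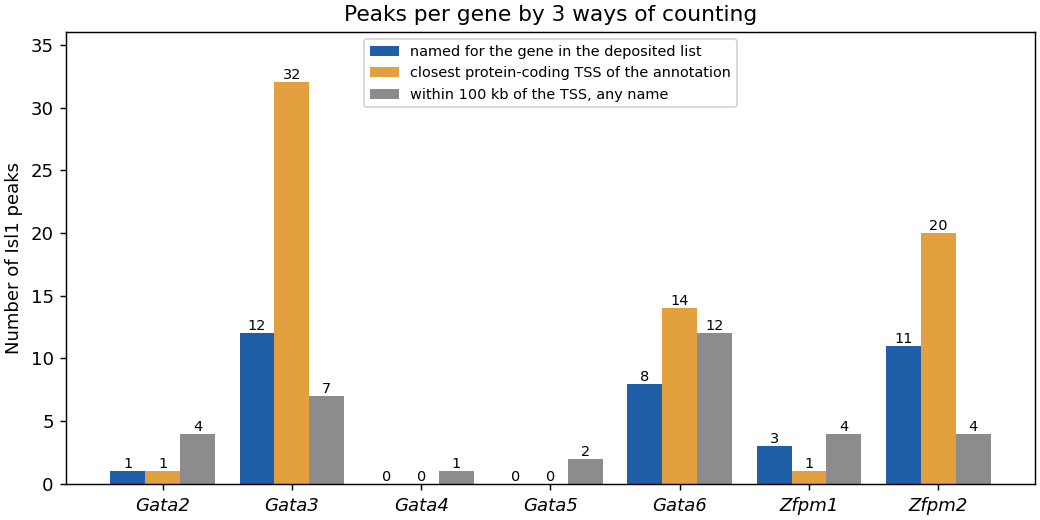
Number of Isl1 peaks (y axis) at each of the 7 genes (x axis), counted by the name in the deposited list, by the closest protein-coding TSS of the annotation, and within 100 kb of the TSS whatever the name. Gata3 rises from 12 to 32 peaks, Gata6 from 8 to 14 and Zfpm2 from 11 to 20 between the first and second count, while Zfpm1 falls from 3 to 1 and Gata4 and Gata5 stay at 0.

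The genes also differed in the length of sequence from which the closest-TSS rule draws peaks. The stretch in which a TSS of the gene was the closest protein-coding TSS was 1418 kb at Gata3, 800 kb at Zfpm2 and 496.7 kb at Gata6, and it was 140.9 kb at Gata4, 71.3 kb at Gata2, 61.8 kb at Gata5 and 45.6 kb at Zfpm1. The median over all protein-coding genes was 46.7 kb. The 3 genes with the most peaks had the longest stretches, but Gata4 with the next longest had no peak, and the part of stretch length in the counts was not tested. Counted by the closest protein-coding TSS, Gata3, Zfpm2, Gata6 and Zfpm1 had 21.9 to 28.2 peaks per Mb of their stretch, Gata2 had 14.0 and Gata4 and Gata5 had 0. The values of Zfpm1 and Gata2 rest on 1 peak each. The density of Zfpm1 was not exceeded by 69.3% of protein-coding genes and that of Gata6 by 77.9%, with Gata3 and Zfpm2 between them. The median over all protein-coding genes, those without a peak included, was 10.1 peaks per Mb of stretch. The whole list had 18.2 peaks per Mb of genome.

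The counts also depended on which TSSs the closest-TSS rule used. By the closest protein-coding TSS of GENCODE, 5 of the 7 genes had a peak, as did 54.8% of protein-coding genes, and the 7 genes together had 68 peaks. Gata3 gained 19 peaks that the list named for the noncoding gene 1700061F12Rik and 1 named for 9230102O04Rik. None of the 19 lay within 100 kb of the TSS of the longest Gata3 transcript. Gata6 gained 6 peaks of the noncoding 1010001N08Rik. Zfpm2 gained 6 peaks of Gm16294, 2 of Oxr1 and 1 of 9330182O14Rik, whereas Zfpm1 lost 2 of its 3 peaks to its neighbour Gm22.

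Gata2 is needed for blood stem and progenitor cells. Its only peak lay in intergenic sequence on chromosome 6 of mm9 from 88118929 to 88119320, was 392 bp wide and lay 29.5 kb upstream of the TSS used in the list, or 24.8 kb upstream of the TSS of the longest annotated transcript. It held the 79 bp purine run printed above. Within 100 kb of the longest transcript's TSS there were 3 further peaks with other names. The list named 2 of them for Dnajb8, 53.4 and 56.8 kb downstream of the Gata2 TSS, and 1 for Mir6376, 96.6 kb upstream in an intron of Rpn1. No peak lay inside the 13.1 kb Gata2 transcript.

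Gata3 is required for T cells, sympathetic neurons and the inner ear. The gene is transcribed from the minus strand of chromosome 2, and its 12 peaks lay 18.0, 22.8, 79.0, 85.5, 91.5, 195, 214, 261, 265, 286, 310 and 325 kb downstream of the TSS. The peak at 18.0 kb, from 9781964 to 9782476, was the only one inside an intron of Gata3. The peak at 22.8 kb lay just past the end of the gene, 1 peak lay in an intron of the noncoding gene Gm13218, and 10 of the 12 were intergenic. The peaks extended over 307 kb with gaps of 3.84 to 103.9 kb between neighbours and formed groups, with 3 peaks from 79.0 to 91.5 kb and 2 peaks at 261 and 265 kb.

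Peaks on the upstream side of Gata3 carried another name. The longest Gata3 transcript starts upstream of the TSS used in the list, and 9230102O04Rik, on the same strand, starts 494 bp inside it. The list named 3 peaks on the upstream side for 9230102O04Rik, at 7.71, 18.0 and 78.5 kb upstream of the longest Gata3 transcript. The nearest of these, from 9819168 to 9819574, was closer to that TSS than any of the 12 peaks named for Gata3. The other two lay in introns of Gm13262 and of Taf3. Within 500 kb of the TSS there were 32 peaks of any name, a number that 97.9% of protein-coding genes did not exceed.

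**Figure D2:**
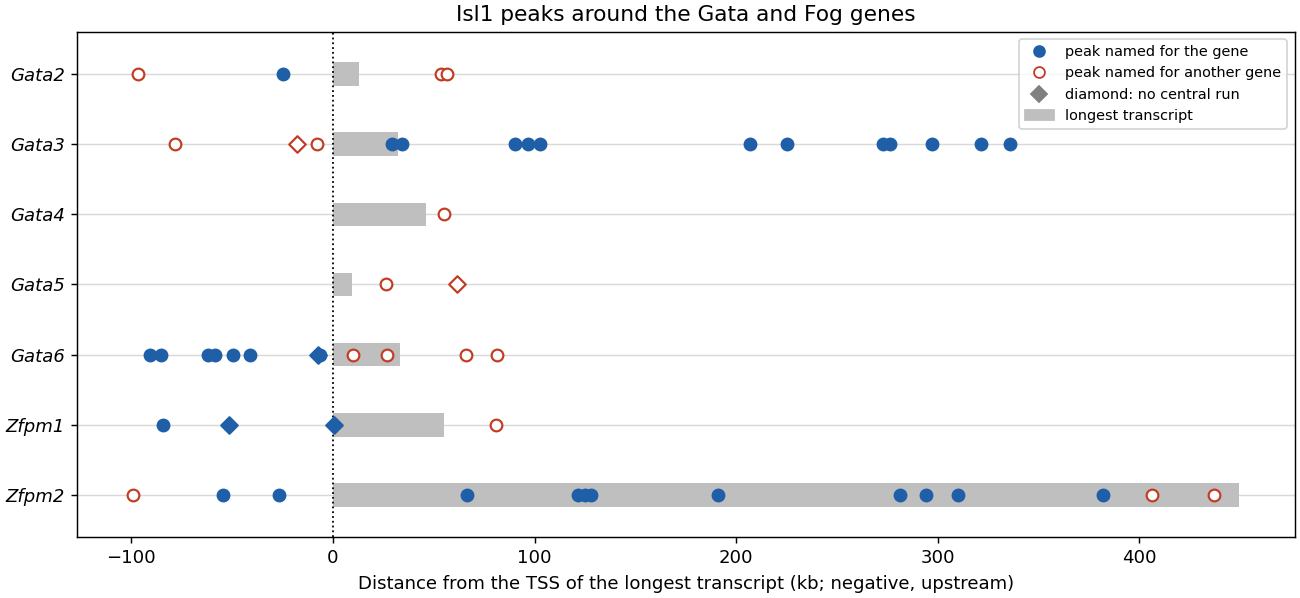
Isl1 peaks at each of the 7 genes (rows) by distance from the TSS of the longest transcript in kb (x axis, negative upstream), within 100 kb or in the transcript and with all peaks named for the gene. Filled symbols are peaks named for the gene, open symbols peaks named for another gene, diamonds peaks without a central purine or pyrimidine run, and grey bars the longest transcript. Gata4 and Gata5 have open symbols only, and Gata6 has filled symbols upstream and open symbols downstream of its TSS.

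Gata4, whose protein works together with Nkx2-5 and Tbx5 in heart development, had no peak. The paper counts Gata4 and Gata5 among Isl1 primary downstream targets, from binding together with changed expression upon Isl1 loss. Binding was taken from embryos or from progenitors derived from embryonic stem cells. The progenitor peaks were not used here, so the lack of a named peak concerns the embryo list only. The Gata4 TSS lies at 63864108 on the minus strand of chromosome 14. The nearest peak lay 55.2 kb downstream of it, from 63808736 to 63809064, and was 329 bp wide. The list named this peak for Neil2, a DNA glycosylase gene, since it lay in an intron of Neil2 3.46 kb downstream of that gene's TSS. It was 8.70 kb beyond the end of the Gata4 transcript and held a run of 66 bp. On the upstream side the nearest peak was named for Blk, a kinase gene of B cells, and lay in an intron of Blk 150.8 kb from the Gata4 TSS, from 64014584 to 64015153. It was 570 bp wide and held no run, with a longest stretch of 21 bp. The Gata4 TSS therefore sat in 206 kb without a peak. Such gaps were shorter than or equal to this at 82.1% of 22174 protein-coding genes, with a median of 104.8 kb. Gata4 was the only 1 of the 7 genes without a peak of any name within 50 kb of its TSS, as were 21.2% of protein-coding genes. Within 500 kb it had 12 peaks.

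Gata5, which acts in endocardium and endoderm, also had none. Its TSS lies at 180069404 on the minus strand of chromosome 2, and the nearest peak, named for Rbbp8nl, lay 26.3 kb downstream from 180042778 to 180043336. This peak was 559 bp wide, intergenic, 18.5 kb upstream of the Rbbp8nl TSS and 16.5 kb beyond the Gata5 transcript, with a run of 66 bp. A second peak within 100 kb lay over an exon of Cables2 at 61.4 kb, from 180007732 to 180008347. It had 76.0% G and C and no run, with a longest stretch of 14 bp. Upstream the nearest peak was named for Ntsr1 and lay 151.5 kb away, so the TSS sat in 177.9 kb without a peak, which 76.0% of genes did not exceed. With 10 peaks within 500 kb, Gata5 had the lowest number of the 7 genes.

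Gata6, which is active in heart, endoderm and smooth muscle, was the only heart Gata gene with peaks of its own. The 8 peaks lay in intergenic sequence of chromosome 18 at 90.6, 85.4, 62.0, 58.3, 49.8, 40.9, 7.50 and 6.62 kb upstream of the TSS at 11052508, and were 294 to 549 bp wide. They fell into 3 groups, at 85.4 to 90.6 kb, at 40.9 to 62.0 kb and at 6.62 to 7.50 kb, over 84.4 kb in all. The closest pair lay 0.88 kb apart. Of the 8 peaks, 7 held a run within 100 bp of the midpoint. In the peak at 7.50 kb the longest central stretch was 22 bp, and a run of 57 bp lay off centre.

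Downstream of the Gata6 TSS the peaks carried another name. The noncoding gene 1010001N08Rik is transcribed from the opposite strand and starts 57 bp from the Gata6 TSS, so the closest-TSS rule gave it the peaks downstream of Gata6. There were 6 of them, from 9.88 to 266.4 kb, all with a run and 314 to 602 bp wide. The peaks at 9.88 kb (11062186 to 11062583) and 26.6 kb (11078986 to 11079299) lay in introns of Gata6. Together the pair of TSSs had 14 peaks. Within 100 kb of the Gata6 TSS there were 12 peaks, 8 upstream and 4 downstream, and 99.8% of protein-coding genes had no more. Over 1 Mb centred on the TSS the number was less unusual, with 19 peaks that 63.1% of genes did not exceed.

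Zfpm1 was the only gene with peaks over CG-rich sequence. Its TSS lies at 124806041 on chromosome 8, and the peak 0.299 kb downstream, from 124806114 to 124806567, covered part of exon 1. This was the only 1 of the 35 peaks within 1 kb of a TSS, where 1245 of all 48295 peaks lay. It had 82.6% G and C and 81 CG dinucleotides, 1.06 times the number that its C and G content gives, and its longest purine run was 9 bp. The peak 51.7 kb upstream, from 124754050 to 124754546, had 77.5% G and C, 72 CG dinucleotides at a ratio of 0.98, and a longest run of 10 bp. The third, 84.3 kb upstream from 124721485 to 124721953, was of the more frequent kind, with a pyrimidine run of 71 bp and 54.6% G and C. Both upstream peaks lay in introns of the long readthrough gene Gm20388 and were closer to the TSS of Gm22 (71.75 and 39.17 kb) than to Zfpm1. Peaks with at least 50% G and C and a CG ratio of at least 0.6, a criterion set after the values were seen, made up 2 of the 35 peaks (5.71%) and 824 of all peaks (1.71%). Over the whole list 739 of these 824 held no central run, and 615 (74.6%) lay within 1 kb of a TSS.

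Zfpm2 carries its peaks mostly inside the gene. Its transcript of 449.6 kb starts at 40486588 on chromosome 15 and has a length that 98.9% of protein-coding genes do not exceed. Upstream there were 2 intergenic peaks, at 54.5 and 26.9 kb. The other 9 lay in introns of Zfpm2 at 66.5, 121, 125, 128, 191, 282, 294, 310 and 382 kb, over 436.9 kb in all with the upstream pair. All 9 were closer to another protein-coding Zfpm2 TSS of the annotation, inside the gene. Those at 66.5, 121, 125 and 128 kb lay 30.2, 24.7, 28.4 and 31.5 kb from it. The 3 peaks at 121 to 128 kb formed the densest group. A further 2 intronic peaks, 406 and 437 kb from the TSS, carried the name of Oxr1. In all, 11 peaks lay within the Zfpm2 transcript, a number not exceeded by 99.3% of genes. No peak lay within 10 kb of its TSS, and the gap between peaks around the TSS was 93.5 kb, below the median of 104.8 kb over protein-coding genes. All 11 named peaks held a run, of 71 to 286 bp.

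A purine or pyrimidine run of at least 25 bp within 100 bp of the peak midpoint was present in 32 of the 35 peaks (91.4%, 95% Wilson interval 77.6 to 97.0%), and in 94.1% of all peaks (interval 93.9 to 94.3%). The intervals cover counting error only. The 3 exceptions were the CG-rich peaks of Zfpm1 and the Gata6 peak at 7.50 kb. Every peak of Gata2, Gata3 and Zfpm2 held a run. In the 32 peaks the longest run had a median of 118 bp, from 61 to 316 bp, against 114 bp over all peaks with a run. The longest was the Gata3 peak at 265 kb. On the plus strand 17 runs were purine and 15 pyrimidine, and read along the strand of the gene 15 were purine and 17 pyrimidine. The G and C content of the 32 peaks was 38.7 to 61.1%, with a median of 46.3% against 45.5%.

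**Figure D3:**
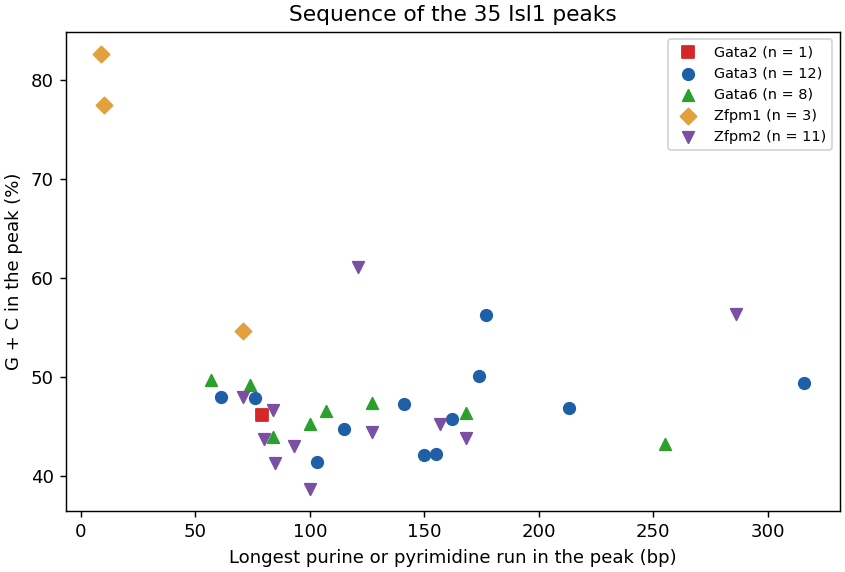
G and C content of each of the 35 peaks in percent (y axis) against the longest purine or pyrimidine run in the peak in bp (x axis), coloured by gene. The Zfpm1 peaks with 77.5 and 82.6% G and C and runs of 9 and 10 bp stand apart from the others, which hold 38.7 to 61.1% and runs of 57 bp or more.

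The repeats around the midpoint varied, counted within 100 bp of it whether or not they lay inside a run. GA repeated at least 4 times was present in 20 peaks (57.1%, against 55.0% of all peaks), GGA in 7 (20.0% against 16.1%), GAA in 5 (14.3% against 12.1%) and GGGA in 5 (14.3% against 17.4%). GGAA was found in 2 peaks (5.71% against 11.3%) and GAAA in 1 (2.86% against 8.70%). In all, 27 of the 35 peaks (77.1%) held at least 1 of these repeats, counted on both strands, against 82.1% of all peaks. The Gata3 peak at 265 kb combined GA, GAA, GGA and GGGA.

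Short motifs were counted on both strands in the 200 bp around the midpoint. The letters TAAT, the core of LIM-homeodomain sites, were present in 10 of the 35 peaks (28.6%), against 35.3% of all peaks. These were 5 peaks of Zfpm2, 4 of Gata6 and 1 of Gata3, and none of Gata2 or Zfpm1. A Gata site, counted as the letters GATA with A or T before them and A or G after them, was present in 3 peaks (8.57%), against 16.5% of all peaks. They were the Gata3 peaks at 18.0 and 214 kb and the Zfpm2 peak at 310 kb. The Gata6 peaks held none in this window. With the whole peak searched, TAAT was in 28 peaks (80.0% against 82.8%) and the Gata site in 8 (22.9% against 49.7%). The Gata3 peak at 18.0 kb held 4 and the Zfpm2 peak at 125 kb held 5 such sites. A run of purines or pyrimidines can hold neither motif.

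The runs around the genes were then counted without regard to peaks. Within 100 kb of the TSS, runs of at least 50 bp numbered 41 at Gata6, 23 at Gata3, 11 at Gata5, Zfpm1 and Zfpm2, 9 at Gata4 and 8 at Gata2, with a median of 13 over protein-coding genes. The number at Gata6 was not exceeded by 99.98% of genes and that at Gata3 by 94.5%. Runs of 100 bp or more numbered 12 at Gata3, 10 at Gata6, 3 at Gata2 and Zfpm2, 1 at Gata5 and Zfpm1 and 0 at Gata4, against a median of 4. Gata4 was among the 3.30% of genes with none. The genes without a peak, Gata4 and Gata5, thus had 0 and 1 run of this length, but so did Zfpm1 with 1. Whether the number of runs bears on the number of peaks at these genes was not tested.

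Not every run was under a peak. Of the 30 runs of 100 bp or more around the 7 genes, 17 (56.7%) overlapped an Isl1 peak, compared with 49.6% of 58156 in the genome. They included 6 of 12 at Gata3, 6 of 10 at Gata6, 3 of 3 at Zfpm2 and 2 of 3 at Gata2, but 0 of 1 at Gata5 and at Zfpm1. Of the 84 runs of 50 to 99 bp, 18 (21.4%) were under a peak, against 21.2% of 118736 in the genome. Of the 222 runs of 25 to 49 bp the number was 4 (1.80%), against 4.72%. At Gata4, 1 of 9 runs of 50 to 99 bp was under a peak, that of Neil2, and at Gata5 1 of 10. Inside the Zfpm2 transcript 15 of 36 runs of at least 50 bp (41.7%) were under a peak, against 30.6% of 176892 in the genome. Inside the other transcripts with such runs it was 3 of 6 at Gata6, 1 of 2 at Gata3, 0 of 3 at Zfpm1 and 0 of 2 at Gata4.

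**Figure D4:**
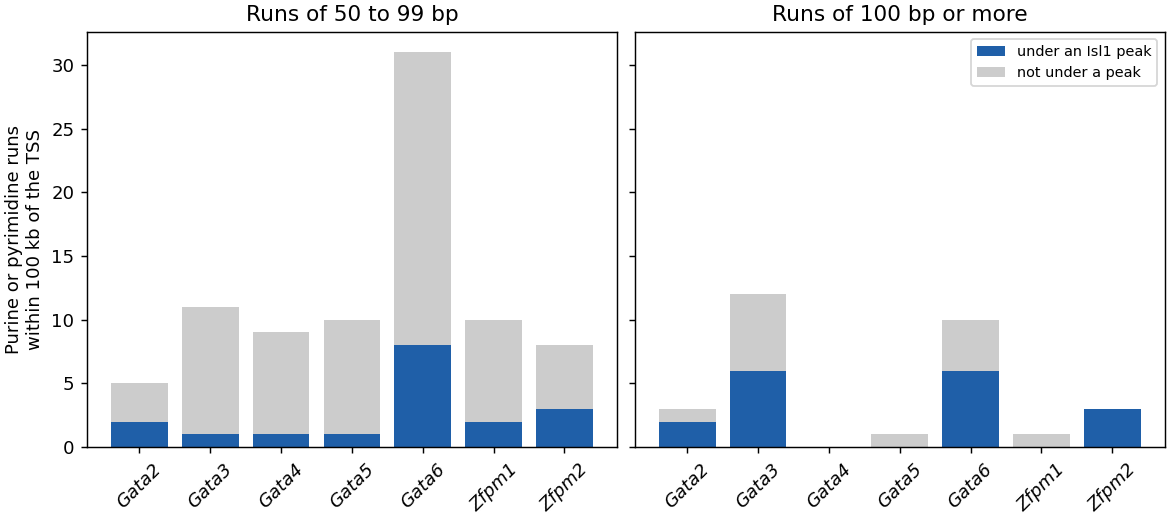
Number of purine or pyrimidine runs within 100 kb of the TSS of each gene (y axis) for runs of 50 to 99 bp and of 100 bp or more, with those under an Isl1 peak in blue. Gata6 has 31 and 10 runs of which 8 and 6 are under a peak, and Gata4 has 9 runs of 50 to 99 bp, 1 of them under a peak, and none of 100 bp or more.

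Genes that work with these factors were counted from 5 lists, beside the 45.5% of protein-coding genes with a peak. Of 13 heart partners of Gata4, 10 had a peak and 88 peaks in all, led by Isl1 itself with 33, the nuclear receptor gene Nr2f2 with 25, Tbx5 with 10 and Mef2c with 8, while Srf, Nfatc4 and Smarcd3 had none. The paper counts Smarcd3 (Baf60c) as an Isl1 target too, also from its lower expression upon Isl1 loss, with the same limit as for Gata4. Of these 13 genes, 3 had a peak within 10 kb, where 22.6% of protein-coding genes had one. Of 11 blood partners of Gata1 or Gata2, 10 of them found in the annotation, 6 had a peak, with 27 in all. Among them were Runx1 and Erg with 9 each and Fli1 with 5, whereas Lmo2, Ldb1 and Klf1 had none. Of 10 other genes with GATA-type zinc fingers, 5 had a peak, and 19 of their 25 peaks belonged to Trps1. Gata1, the red cell factor bound by Zfpm1, had none. Of 9 chromatin partners of Fog proteins, 5 had a peak, with 23 of 32 peaks at Mbd2 and 5 at Hdac2, and none at Chd4 or Hdac1. Of 10 targets of Gata factors, 5 had a peak, with 16 in all, Foxa2 having 8 and Bmp4 3. The heart muscle targets Nppa, Nppb, Actc1 and Myl7 were among the 5 without one.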

How the data were processed

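The authors aligned ChIP-Seq reads to mm9 with bowtie2 at default settings. Duplicates were removed with Picard 1.136, and MACS was run with a p-value limit for peaks. Peaks on the ENCODE blacklist were left out, and HOMER named the gene of the closest TSS. The submitters' processing notes also name deepTools. The authors deposited peak positions and distances in bp, with no height, read number or p-value. The study's methods describe intersecting the peaks of replicate experiments, without saying whether this list is such an intersection, so the number of experiments behind it is unsettled and the depth is unknown. The list has another header line inside it (1 line), which was dropped. Positions were read as 1-based with both ends counted.

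Peaks were taken by gene symbol. The named genes were the 7 genes themselves, the nearest peaks of those without one and, of 5 gene lists, up to 4 genes with the most peaks and up to 4 with none. The genes and lists were chosen with earlier results of these data known, and the run measure was taken over from such results. TSSs, introns and exons came from GENCODE vM1, on the same build, where all list genes but Spi1 were found by symbol. Gene-level shares use its protein-coding genes, matched to the list by symbol where peaks were counted by name. Sequence came from the mm9 genome (Python 3.11.15, pandas 2.3.3, pysam 0.24.0). The scripts were tested on simulated data. Alternatives changed the distance limit, peak width, run length, search window and TSS annotation. No test was run, since there was 1 sample.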

Additional observations from a re-analysis of the deposited data

How the results depend on the processing

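The values rest on 1 peak list without a second list, read depth or peak heights, so weak and strong sites counted alike. With peaks within 10 kb of the TSS, the number of genes with a peak went from 5 to 2, the number of peaks from 35 to 3 and the median per gene from 3 to 0. With peaks without a central run these were 2, 3 and 0. Within 100 kb there were 20 peaks, and 15 were wider than the median of all peaks. The matching shares of all peaks are not given here, so these counts set nothing apart at these genes. With the closest protein-coding GENCODE TSS there were 68 peaks and a median of 1 per gene over all 7, equal to the 1 over all protein-coding genes. Peaks with TAAT went from 10 to 28 when the whole peak was searched, and those with a Gata site from 3 to 8, or to 6 with GATA alone. Of 27 alternative values, the other 14 stayed within 1.5 times the reported one. No paired analysis was possible because there was 1 sample with a peak list.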
